A study of Mus musculus with 6 samples.

Results

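The 43 collagen chain genes of the mouse were followed in subcutaneous tumours, out of 21671 named genes measured. They were taken as the genes whose symbol is Col, a number, a and a number, such as Col1a1. This leaves out Col4a3bp, whose product is no collagen chain. The reference annotation used here lists 44 such symbols, and the other one, a type VI chain, was not analysed here. By kind, 11 members encode fibrillar chains, 6 the type IV chains of basement membranes, 9 the FACIT chains that sit on the surface of fibrils, and 17 other chains. The tumours grew in mice of the strain label CD1 nude ho from injected hepatoblasts, progenitors of hepatocytes and bile duct cells, that had been transformed and carried the vector TtRMPVIR shST18. This vector makes a short hairpin RNA against ST18 when doxycycline is given. The untreated group (treatment label untreated, genotype label wild type) and the doxycycline group (treatment label 4h Doxycycline, genotype label ST18 knockdown) had 3 libraries each. The protocol text is the same on all 6 samples and describes a first dose of 200 mg/ml doxycycline in 300 µl of water by oral gavage, with the animals killed after 4 h. No group in the labels received the drug in the absence of the vector, so the hairpin cannot be told apart from the drug and its gavage. Whether each library is a separate animal is not stated. If some are not, the p-values reflect only how far these libraries vary, which may be technical.

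Collagens are the main structural proteins of the extracellular matrix. Each molecule is a trimer of alpha chains whose repeated glycine-X-Y triplets wind into a triple helix, and the chains of one type are often products of different genes. Types I, III and V form the banded fibrils of connective tissue, type IV forms the sheet under epithelia and around vessels, type VI forms beaded filaments around cells, and FACIT collagens such as XII and XIV link fibrils to their surroundings. In tumours most fibrillar collagen is made by fibroblasts and related stromal cells, and prolyl and lysyl hydroxylases, procollagen proteases and lysyl oxidases act on the chains before a stable fibre exists.

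Total counts per library ran from 12090309 to 16169043. Levels are given as CPM, that is counts scaled to a library total of 1e6 after TMM adjustment, and differences as log2 fold changes, positive when higher after doxycycline. St18, the hairpin's target, had 12, 23 and 19 counts untreated and 34, 12 and 61 counts after doxycycline (log2 fold change 1.03, edgeR adjusted p = 0.298), so a fall of the target was not seen in the libraries labelled ST18 knockdown. It was higher without doxycycline replicate 2 (log2 fold change 1.45, adjusted p = 0.0386). Of 14 hepatoblast and liver markers, Krt8 and Krt18, keratins of simple epithelia, lay at 43.5 ± 24.7 and 67.2 ± 19.0 CPM untreated (SD, n = 3). After doxycycline they lay at 61.0 ± 27.7 and 60.3 ± 10.9 CPM. Of the 14, 8 were tested and 0 were higher or lower in edgeR, against 2.84% and 2.18% of all genes. The summed CPM of the 14 was 222, 128 and 151 untreated and 199, 136 and 219 after doxycycline. Albumin (Alb, 2, 2 and 1 counts untreated and 0, 2 and 0 after doxycycline) and the hepatocyte transcription factor Hnf4a (0, 4 and 16 counts untreated and 4, 2 and 14 after doxycycline) were close to absent. Counts of abundant genes levelled off. Between the deepest and the shallowest untreated library the totals had a ratio of 1.23. The median gene had a ratio of 1.25 at 0.05 to 0.1 counts per exonic base but 1.11 above 1 count per base. In between the ratio fell by steps, to 1.23 at 0.1 to 0.3, 1.19 at 0.3 to 0.6 and 1.15 at 0.6 to 1.

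After doxycycline 7 collagen genes were higher and none was lower. These were the type VIII chains Col8a1 and Col8a2, the fibrillar chains Col11a1 and Col5a2, the FACIT chains Col12a1 and Col14a1, and the type IV chain Col4a5. Of the 43 members 41 passed the filter on low counts and were tested, which makes 17.1% higher, against 2.84% of all 14809 genes tested. Lower were 0 of 41 members, against 2.18% of all genes. At an unadjusted p under 0.05 in edgeR, 21 members were higher and 0 lower, against 13.1% and 10.8% of all genes. At an adjusted p under 0.05, limma-voom called 5 higher and 0 lower (1.69% of all genes higher). DESeq2, run without edgeR's filter, called 13 higher and 0 lower, against 4.29% of its 20453 genes higher. Of the 14809 genes tested in edgeR, DESeq2 called 861 higher and 789 lower. Over all genes edgeR called 421 higher and 323 lower, a split that turned to 300 higher and 404 lower with offsets for GC content and length and to 351 and 466 when the most abundant genes were left out of the scaling. Col9a1 (1, 6 and 9 counts untreated, 2, 24 and 7 after doxycycline) and Col25a1 (8, 4 and 6 and 5, 5 and 9) were not tested. Col6a6, Col11a1 and Col19a1 passed the filter only through the doxycycline libraries, where they are higher, and of the 38 other members tested 6 were called. All 3 doxycycline libraries lay above all 3 untreated libraries in 19 of the 41 members, against 15.2% of all genes, and below them in 0, against 14.4%. The median log2 fold change of the 41 was 0.59, and 0.01 over all genes.

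The number of collagen genes called higher depended on single libraries. Only Col8a1 was called with each library left out in turn. Without untreated replicate 1 it was 2 (Col8a1 and Col11a1, with 0.0721% of all genes called higher). It was 2 without untreated replicate 2 (Col8a1 and Col14a1, 0.179% of all genes) and 1 without untreated replicate 3 (Col8a1, 0.0924%). Without doxycycline replicate 1 the number was 4 (Col8a1, Col8a2, Col11a1 and Col14a1, 1.19% of all genes), and without doxycycline replicate 3 it was 4 (Col8a1, Col8a2, Col11a1 and Col12a1, 1.06%). Doxycycline replicate 2 acted the other way. With it left out 12 members were higher (8.18% of all genes), which added Col1a1, Col6a2, Col6a6, Col7a1, Col15a1 and Col23a1 to the 7 and removed Col4a5, and 1 member, Col26a1, was lower (5.69% of all genes). The summed CPM of all 43 members was 3253, 3389 and 3328 in the untreated libraries, in the order of their replicate numbers, against 4389.7, 3816 and 4785 in the doxycycline libraries. These groups did not overlap, and doxycycline replicate 2 lay nearest to the untreated libraries.

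**Figure D1:**
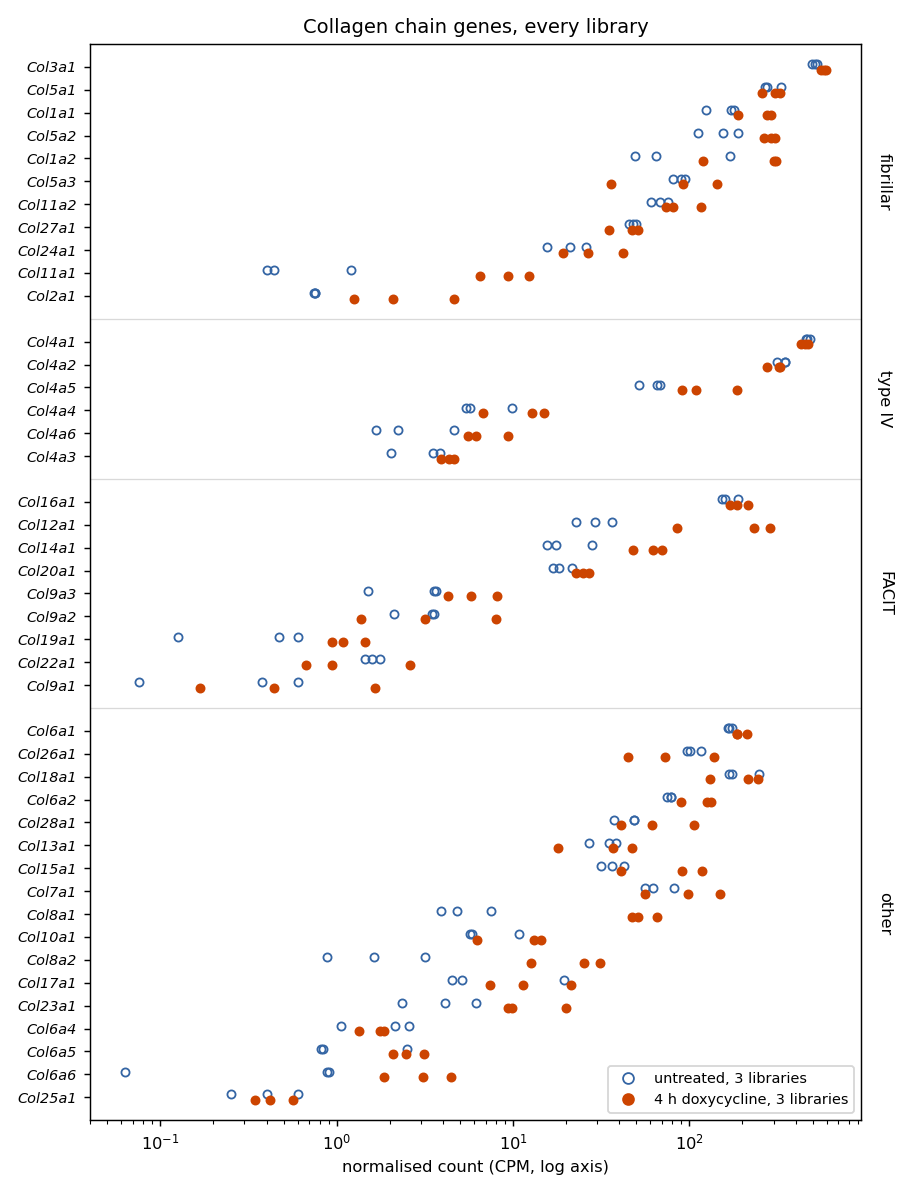
Normalised count of each of the 43 collagen chain genes in every library, in CPM on a log axis, with open circles for the 3 untreated libraries and filled circles for the 3 libraries taken 4 h after doxycycline. Members are grouped by kind and ordered by level per exonic length, and the open and filled circles are far apart for Col8a1, Col8a2, Col11a1 and Col12a1 and close together for Col3a1, Col4a1 and Col4a2.

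Markers of other cell types moved in the same libraries. Their counts stand against the same shares of all genes, 2.84% higher and 2.18% lower in edgeR, and 13.1% and 10.8% at an unadjusted p under 0.05. For counts by other methods, DESeq2 called 877 of its 20453 genes higher (4.29%) and 790 lower. By limma-voom 251 of 14809 genes were higher (1.69%) and 276 lower. The fibroblast list had 5 of its 11 markers higher (Dcn, Lum, Postn, Mfap5 and Dpt) and none lower (median 0.83 on the log2 scale). On the same list Pi16 was lower in each doxycycline library and did not pass (log2 fold change -0.83, edgeR adjusted p = 0.114). It was at 36.3, 33.9 and 35.0 CPM untreated and 23.8, 11.2 and 24.3 CPM after doxycycline. Fbln1 and Fbln2 had log2 fold changes of -0.04 and 0.04. Mfap5 passed the filter on low counts only through the doxycycline libraries. The summed CPM of the 11 was 646, 638 and 609 untreated and 952, 925 and 912 after doxycycline, almost the same in each doxycycline library. Single markers were not level there. In the doxycycline libraries Postn was at 142, 61.2 and 127 CPM and Pdgfra at 103, 229 and 127 CPM. Mfap5 and Thy1 were also lowest in doxycycline replicate 2, and Fap was highest there. The skeletal muscle list had 10 of 15 markers higher and none lower, with a median of 3.60 and sums of 82.5, 228 and 99.6 untreated and 1501, 3012 and 438 after doxycycline. Of the 15, Ckm, Myh4, Myl1, Tnni2 and Pvalb passed the filter only through the doxycycline libraries, and 4 of these are among the 10 called. DESeq2 called 14 muscle markers higher and limma-voom 1. The muscle sum was highest in doxycycline replicate 2 and lowest of that group in replicate 3. Of 7 tendon and muscle connective tissue markers 5 were tested and 2 were higher, Fmod and Thbs4, with sums of 59.7, 50.5 and 58.4 untreated and 109, 159.8 and 111 after doxycycline. Thbs4 passed the filter only through the doxycycline libraries. On the same list Scx went from 23.0 ± 2.05 to 31.0 ± 2.22 CPM and Comp from 2.33 ± 0.348 to 4.64 ± 1.61 CPM, both without overlap and neither past the threshold, Mkx overlapped at 25.9 ± 3.07 and 30.5 ± 7.47 CPM, and Tnmd and Kera stayed below 1 CPM. None of 10 mural cell markers and 2 of 10 endothelial markers (Cdh5 and Tek) were higher, with sums of 561, 597 and 610.3 untreated and 652, 575 and 649 after doxycycline for mural and 409.6, 417 and 448 untreated and 519, 471 and 535 after doxycycline for endothelial markers. Of the cartilage markers, Acan had 4, 4 and 5 counts untreated and 75, 4 and 151 after doxycycline. Matn3 had 3, 7 and 4 counts untreated and 7, 18 and 15 after doxycycline, without overlap in CPM. Hapln1 had 3, 4 and 2 and then 20, 6 and 1 counts, and Matn1 and Lect1 were near 0. Only Sox9 passed the filter on low counts, at 31.2 ± 5.23 CPM untreated and 29.3 ± 3.31 CPM after doxycycline (log2 fold change -0.09, edgeR adjusted p = 0.786). DESeq2, run with no such filter, called 1 cartilage marker higher, Acan, with the counts just given. In edgeR at an unadjusted p under 0.05, 1 fibroblast, 0 muscle, 0 tendon, 1 mural and 0 endothelial markers were lower, and 4 mural markers higher. DESeq2 called 1 fibroblast marker lower and 3 mural markers higher, and limma-voom 0 of either. Of the Schwann cell, adipocyte and keratinocyte lists, 6, 1 and 2 markers were tested and 0 passed in edgeR, DESeq2 or limma-voom, with 0 higher and 1 lower (a Schwann cell marker) at an unadjusted p under 0.05. Fap is also on the list of collagen breakdown genes. Sox9 is also on the list of hepatoblast and liver markers, and which cells its counts came from was not tested. The part of these shifts in the collagen results was not tested, and in bulk tissue more cells of a type and more RNA per cell cannot be told apart.

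**Figure D2:**
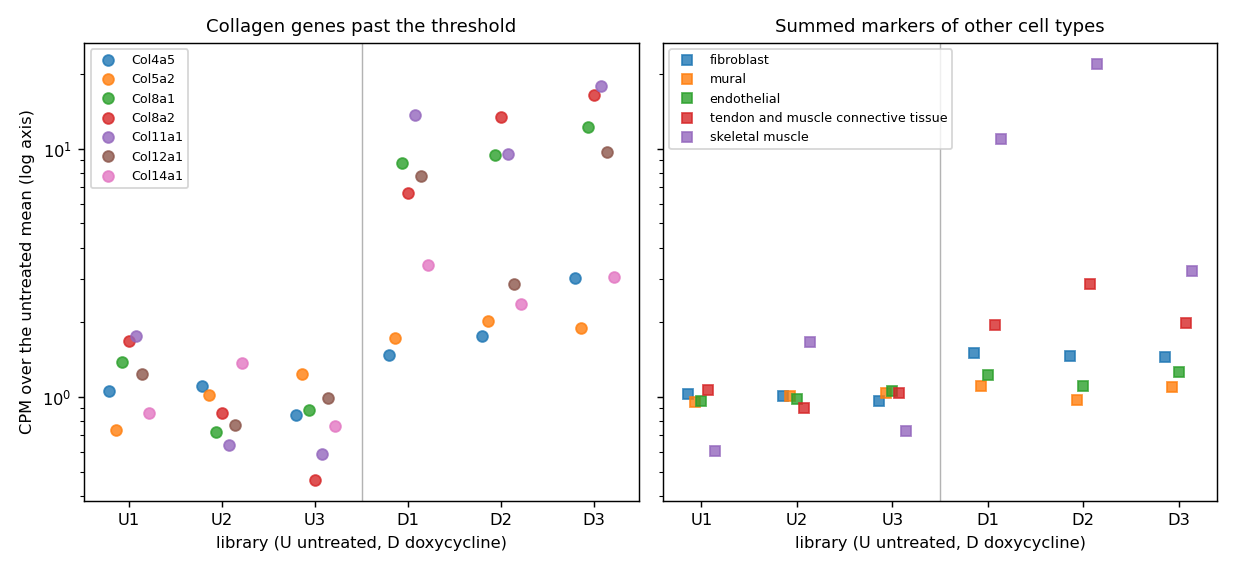
CPM divided by the untreated mean, on a log axis, in untreated (U) and doxycycline (D) libraries, for the 7 collagen genes past the threshold on the left and for the summed markers of 5 other cell types on the right. In doxycycline replicate 2 the muscle sum and Col5a2 are at their highest of the doxycycline group. Col11a1, Col12a1 and Col14a1 are at their lowest there, and Col4a5, Col8a1 and Col8a2 in between. The fibroblast sum is nearly level across doxycycline replicates 1 to 3, although single fibroblast markers are not: in replicate 2 Postn is lowest of that group and Pdgfra highest. The part of the marker sums in the collagen values was not tested.

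Among the fibrillar collagens, 2 of 11 tested chains were higher, and the abundant chains of types I and III did not pass the threshold. Col3a1, the single chain of type III, had the highest level per exonic length of all members, in CPM per kilobase 92.4 untreated and 104 after doxycycline. It was at 529, 514 and 499 CPM untreated, in the order of the replicate numbers here and for every gene, and at 578, 598 and 559 CPM after doxycycline. The groups did not overlap, but the difference was small (log2 fold change 0.17, SE 0.0615, 95% interval 0.03 to 0.31, edgeR adjusted p = 0.141). At 1.24 to 1.60 counts per base it lies in the range where counts levelled off.

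Type I collagen, the most abundant fibrillar collagen of connective tissue, is built of Col1a1 and Col1a2 chains. Col1a1 was at 173, 178 and 124 CPM untreated and 275, 189 and 289 CPM after doxycycline (log2 fold change 0.67, SE 0.182, 95% interval 0.25 to 1.08, edgeR adjusted p = 0.0747). Its groups did not overlap, doxycycline replicate 2 lay just above the untreated libraries, and without that library Col1a1 was called (log2 fold change 0.83, edgeR adjusted p = 0.00965). Col1a2 was at 64.9, 49.0 and 171 CPM untreated and 300.0, 119.8 and 309.9 CPM after doxycycline (log2 fold change 1.36, SE 0.490, 95% interval 0.24 to 2.48, edgeR adjusted p = 0.142). Untreated replicate 3 stood apart with more than both other untreated libraries together, above doxycycline replicate 2. Without it the log2 fold change was 2.09 (edgeR adjusted p = 0.136). Per exonic length, the ratio of Col1a1 to Col1a2 was 2.40, 3.28 and 0.653 untreated and 0.828, 1.43 and 0.842 after doxycycline. The ratios overlapped and spread more widely within the untreated group.

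Type V collagen initiates fibrils and sits inside those of type I. Its chain gene Col5a2 rose from 152 ± 38.5 to 287 ± 22.0 CPM (SD, n = 3 each; log2 fold change 0.91, SE 0.166, 95% interval 0.53 to 1.29, edgeR adjusted p = 0.0241). The untreated libraries had 113, 155 and 189 CPM and the doxycycline libraries 263, 307 and 289.9 CPM. All 3 doxycycline libraries were higher, and doxycycline replicate 2 was no exception here. The call was lost without any 1 library other than doxycycline replicate 2 (adjusted p from 0.0538 to 0.111). Its partner Col5a1, with 267, 332 and 275 CPM untreated and 305, 259 and 327 CPM after doxycycline, did not pass (log2 fold change 0.03, edgeR adjusted p = 0.911). The ratio of Col5a1 to Col5a2 per exonic length was 1.87, 1.68 and 1.14 untreated and 0.912, 0.665 and 0.890 after doxycycline, without overlap. Col5a3, a rarer chain of the same type, spread over 92.6, 36.1 and 143 CPM after doxycycline, on both sides of its untreated values (log2 fold change 0.03, edgeR adjusted p = 0.968).

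Type XI collagen is the counterpart of type V and is best known from cartilage. Col11a1 had 16, 7 and 6 counts untreated and 112, 95 and 196 counts after doxycycline, or 1.21, 0.440 and 0.405 CPM untreated and 9.38, 6.52 and 12.3 CPM after doxycycline. Every doxycycline library was well above every untreated one (log2 fold change 3.79, SE 0.489, 95% interval 2.67 to 4.90, edgeR adjusted p = 0.0105). The gene passed the filter on low counts only through the doxycycline libraries. Its level stayed low, at 1.23 CPM per kilobase after doxycycline against 104 for Col3a1. The call was lost without untreated replicate 2 or 3 (adjusted p = 0.0599 and 0.0712). The other type XI chain gene, Col11a2, was expressed at 68.1 ± 7.37 CPM untreated and 90.5 ± 23.2 CPM after doxycycline and did not pass (log2 fold change 0.41, edgeR adjusted p = 0.196). Col2a1, the main fibrillar chain of cartilage, stayed below 1 CPM untreated (10, 12 and 11 counts) and had 25, 67 and 20 counts after doxycycline, without overlap (log2 fold change 1.81, edgeR adjusted p = 0.0873). Col24a1 and Col27a1 had log2 fold changes of 0.49 and -0.10 with overlapping groups.

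In the type IV family the main chains did not pass the threshold and 1 minor chain rose. Col4a1 and Col4a2, the chains of the basement membrane network in most tissues, ranked just below Col3a1 in level per length, in CPM per kilobase 70.8 untreated and 68.3 after doxycycline for Col4a1, and 52.1 untreated and 47.8 after doxycycline for Col4a2. Col4a1 was at 456, 466 and 483 CPM untreated and 431, 472 and 452 CPM after doxycycline (log2 fold change -0.05, SE 0.0643, 95% interval -0.20 to 0.09, edgeR adjusted p = 0.678). Col4a2 was at 312, 346 and 349 CPM untreated and 321, 276 and 328 CPM after doxycycline (log2 fold change -0.12, SE 0.0855, 95% interval -0.32 to 0.07, edgeR adjusted p = 0.428). The groups overlapped for both genes. At 0.777 to 1.12 and 0.595 to 0.855 counts per base both genes lie in or near the range where counts levelled off.

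Col4a5, a chain of specialised basement membranes such as those of kidney and skin, rose from 61.9 ± 8.61 to 129 ± 50.4 CPM (SD, n = 3 each; log2 fold change 1.06, SE 0.246, 95% interval 0.50 to 1.62, edgeR adjusted p = 0.0470). Its values were 65.1, 68.4 and 52.1 CPM untreated and 91.4, 109 and 186 CPM after doxycycline. The groups did not overlap, and doxycycline replicate 3 was far above replicates 1 and 2. It was the weakest of the 7 calls and was lost without any 1 of the 6 libraries (adjusted p from 0.0523 to 0.263), in limma-voom (0.0872) and with offsets for GC content and length (0.0570). Col4a6, which starts 1343 bases from Col4a5 on the other strand in the reference build GRCm38.p6, was at 1.66, 4.65 and 2.23 CPM untreated and 6.20, 5.56 and 9.40 CPM after doxycycline. These groups did not overlap either, but the difference did not pass (log2 fold change 1.30, edgeR adjusted p = 0.117). Col4a1 and Col4a2 form a like head-to-head pair, with starts 21 bases apart. The remaining such pair, Col4a3 and Col4a4, lay at 3.13 ± 0.961 and 6.97 ± 2.50 CPM untreated, with log2 fold changes of 0.44 and 0.73, neither past the threshold.

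Of the FACIT collagens, Col12a1 and Col14a1 rose, out of 8 tested. Col12a1, whose product coats type I fibrils in tendon, muscle connective tissue and wounds, rose from 29.6 ± 6.89 to 201 ± 105 CPM (SD, n = 3 each; log2 fold change 2.77, SE 0.407, 95% interval 1.84 to 3.70, edgeR adjusted p = 0.0154). The untreated libraries had 36.6, 22.9 and 29.3 CPM, and the doxycycline libraries 231, 84.7 and 287 CPM. Doxycycline replicate 2 had the lowest Col12a1 of its group, still well above the highest untreated value. Without any 1 untreated library the call was lost (adjusted p = 0.0976, 0.0859 and 0.133), as it was without doxycycline replicate 1 (0.0586) in limma-voom (0.0620) and with no filter on low counts (0.0894). Leaving out doxycycline replicate 2 gave a log2 fold change of 3.13 (adjusted p = 2.80e-04).

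Col14a1, the related FACIT of skin and tendon, rose from 20.4 ± 6.67 to 60.0 ± 10.9 CPM (SD, n = 3 each; log2 fold change 1.55, SE 0.237, 95% interval 1.01 to 2.09, edgeR adjusted p = 0.0164). It was at 17.6, 28.0 and 15.6 CPM untreated and 69.6, 48.1 and 62.2 CPM after doxycycline, and the doxycycline libraries lay closer together than for Col12a1. The call was lost without untreated replicate 1 (0.109), untreated replicate 3 (0.0949) or doxycycline replicate 3 (0.0506). Col16a1, the FACIT with the highest level per length (32.0 untreated and 36.6 after doxycycline, in CPM per kilobase), did not pass (log2 fold change 0.19, edgeR adjusted p = 0.337) and its groups overlapped. Col20a1 was higher in each doxycycline library, at 24.9, 22.9 and 27.1 CPM against 16.9, 21.5 and 18.1 CPM, and did not pass either (log2 fold change 0.40, edgeR adjusted p = 0.190). The type IX chains, FACITs of cartilage, were low: Col9a2 and Col9a3 lay at 3.05 ± 0.810 and 2.91 ± 1.21 CPM untreated with log2 fold changes of 0.45 and 1.05. Col19a1 (8, 2 and 7 counts untreated, 13, 21 and 15 after doxycycline) and Col22a1 (21, 23 and 26 and 8, 38 and 15) were near the floor of the test and neither passed.

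Type VIII, a short-chain collagen that forms hexagonal networks under endothelia and is made by smooth muscle and other mesenchymal cells, had both of its chains raised. Col8a1 rose from 5.39 ± 1.87 to 54.6 ± 9.91 CPM (SD, n = 3 each; log2 fold change 3.35, SE 0.261, 95% interval 2.75 to 3.94, edgeR adjusted p = 0.00174), and by p it was number 5 of the 14809 genes. Its values were 7.48, 3.89 and 4.79 CPM untreated and 47.2, 50.8 and 65.9 CPM after doxycycline, a wide gap with no library out of place. It was the only member called in each of the 16 alternative analyses, with log2 fold changes from 3.14 to 3.65. Col8a2 rose from 1.89 ± 1.17 to 23.1 ± 9.58 CPM (log2 fold change 3.62, SE 0.504, 95% interval 2.47 to 4.77, edgeR adjusted p = 0.0132), with 3.17, 1.63 and 0.877 CPM untreated and 12.6, 25.3 and 31.3 CPM after doxycycline. Its call was lost without each of untreated replicates 1, 2 and 3 (adjusted p = 0.0519, 0.0775 and 0.0755). The ratio of Col8a1 to Col8a2 per exonic length was 2.0, 2.02 and 4.63 untreated and 3.18, 1.70 and 1.78 after doxycycline, ranges that overlap.

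The start regions of the 3 genes with the largest log2 fold changes are shown, and 2 of them encode partner chains. The 3 were picked by these same values, so their common rise is no separate result. Col11a1 passed the filter on low counts only through the doxycycline libraries. The sequences are from RefSeq, build GRCm38.p6, up to 250 bases before the gene's start, without annotated exons, read 5′ to 3′ on the gene's strand: Col8a1 at chr16:57754738-57754987 on the minus strand, Col8a2 at chr4:126286544-126286792 and Col11a1 at chr3:114030290-114030539, both on the plus strand. Capitals mark matches on either strand to GGGCGG, the GC box, or to CCAAT.
Col8a1: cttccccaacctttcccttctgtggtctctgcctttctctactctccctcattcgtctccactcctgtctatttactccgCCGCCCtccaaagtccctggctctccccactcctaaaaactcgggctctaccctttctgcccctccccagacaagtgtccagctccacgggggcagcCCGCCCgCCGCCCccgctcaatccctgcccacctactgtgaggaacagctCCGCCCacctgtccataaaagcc
Col8a2: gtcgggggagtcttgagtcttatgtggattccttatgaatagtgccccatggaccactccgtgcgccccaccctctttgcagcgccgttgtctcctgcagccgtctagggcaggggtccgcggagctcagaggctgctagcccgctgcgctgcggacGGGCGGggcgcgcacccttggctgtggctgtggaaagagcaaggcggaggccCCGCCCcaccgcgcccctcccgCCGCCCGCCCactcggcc
Col11a1: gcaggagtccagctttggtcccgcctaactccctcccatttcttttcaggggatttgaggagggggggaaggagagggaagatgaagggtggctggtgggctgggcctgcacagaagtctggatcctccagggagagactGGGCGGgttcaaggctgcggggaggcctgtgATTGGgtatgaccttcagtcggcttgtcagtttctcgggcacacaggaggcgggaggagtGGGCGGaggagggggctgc
The search on both strands was for GGGCGG and for the box CCAAT, as well as for the box TATAAA and for TGANTCA, a motif of the AP-1 factors. None of these is part of another, but matches of GGGCGG can overlap each other, as at the end of the Col8a2 window. Col8a1 and Col8a2 each hold 4 GGGCGG matches and no other motif of the search, and Col11a1 holds 2 GGGCGG matches and 1 CCAAT match. A RefSeq start region was found for 34 member genes, among them 4 of the 7 that were called. Of the 34, 21 hold GGGCGG, 13 hold CCAAT, 5 hold TATAAA and 1 holds TGANTCA. Of all 32851 start regions in the table, 32.7% hold GGGCGG, 33.8% hold CCAAT, 12.4% hold TATAAA and 6.75% hold TGANTCA. The members are counted by gene and these shares by start region, so the units are unlike. A match is a run of letters and says nothing on whether a factor binds there.

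Type VI collagen, the beaded filament around cells, was represented by 5 chains. Col6a1 was at 168, 174 and 165 CPM untreated and 213, 186 and 186 CPM after doxycycline, a small difference without overlap that did not pass (log2 fold change 0.20, SE 0.0777, 95% interval 0.03 to 0.38, edgeR adjusted p = 0.159). Col6a2, which assembles with it, was at 78.4, 78.7 and 74.4 CPM untreated and 132, 89.3 and 125 CPM after doxycycline and lay just short of the threshold (log2 fold change 0.58, SE 0.142, 95% interval 0.26 to 0.91, edgeR adjusted p = 0.0540). It was called without doxycycline replicate 2 (log2 fold change 0.74, adjusted p = 8.66e-04) and with offsets for GC content and length (0.62, adjusted p = 0.0150). Col6a6 had 12, 1 and 13 counts untreated and 37, 27 and 71 counts after doxycycline (log2 fold change 2.36, edgeR adjusted p = 0.0882). Col6a4 and Col6a5 were low in every library, with log2 fold changes of -0.22 and 0.89.

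The multiplexins, proteoglycan-like collagens of the basement membrane zone, were both measured. Col15a1 was at 36.6, 42.8 and 31.7 CPM untreated and 91.0, 40.8 and 118 CPM after doxycycline. It overlapped in doxycycline replicate 2 and did not pass (log2 fold change 1.17, SE 0.330, 95% interval 0.42 to 1.92, edgeR adjusted p = 0.0813), while without that library it did (log2 fold change 1.49, adjusted p = 6.35e-04). Col18a1, the source of endostatin, was at 249, 174 and 168 CPM untreated and 216, 131 and 246 CPM after doxycycline with overlapping groups (log2 fold change 0.01, edgeR adjusted p = 0.992). Col7a1, the anchoring fibril chain of skin, was at 81.4, 62.1 and 56.3 CPM untreated and 98.7, 56.2 and 149 CPM after doxycycline, again with doxycycline replicate 2 lowest of its group (log2 fold change 0.61, edgeR adjusted p = 0.275). Col10a1, the network chain of hypertrophic cartilage, had a log2 fold change of 0.59 with overlap. Col17a1, a transmembrane chain of keratinocyte hemidesmosomes, had 5.14, 19.4 and 4.52 CPM untreated and 21.4, 7.41 and 11.4 CPM after doxycycline, and untreated replicate 2 and doxycycline replicate 1 stood above the others. These are also the libraries with the highest sums of 6 keratinocyte markers, 99.2 and 119 CPM against 7.82 to 10.4 in the other 4, and the part of this in the Col17a1 values was not tested.

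The other transmembrane chains tested, Col23a1 and Col13a1, gave mixed values, as did Col26a1 and Col28a1, which are not of that kind. Col23a1 was at 2.34, 6.16 and 4.11 CPM untreated and 19.9, 9.33 and 9.90 CPM after doxycycline, without overlap but short of the threshold (log2 fold change 1.62, SE 0.430, 95% interval 0.64 to 2.60, edgeR adjusted p = 0.0681). Col13a1, a chain of the neuromuscular junction and of cell adhesions, was at 26.8, 38.1 and 35.1 CPM untreated and 36.8, 47.1 and 17.9 CPM after doxycycline (log2 fold change 0.02, edgeR adjusted p = 0.977). Col26a1 and Col28a1 were among the better expressed members, and doxycycline replicate 2 was the highest library for both. Col26a1 was at 101, 97.0 and 117 CPM untreated and 72.5, 138 and 44.9 CPM after doxycycline (log2 fold change -0.30, edgeR adjusted p = 0.637). Without doxycycline replicate 2 it was the only member called lower (-0.85, edgeR adjusted p = 0.0250). Col28a1 was at 37.5, 48.2 and 48.5 CPM untreated and 61.4, 106 and 41.0 CPM after doxycycline (log2 fold change 0.63, edgeR adjusted p = 0.247).

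**Figure D3:**
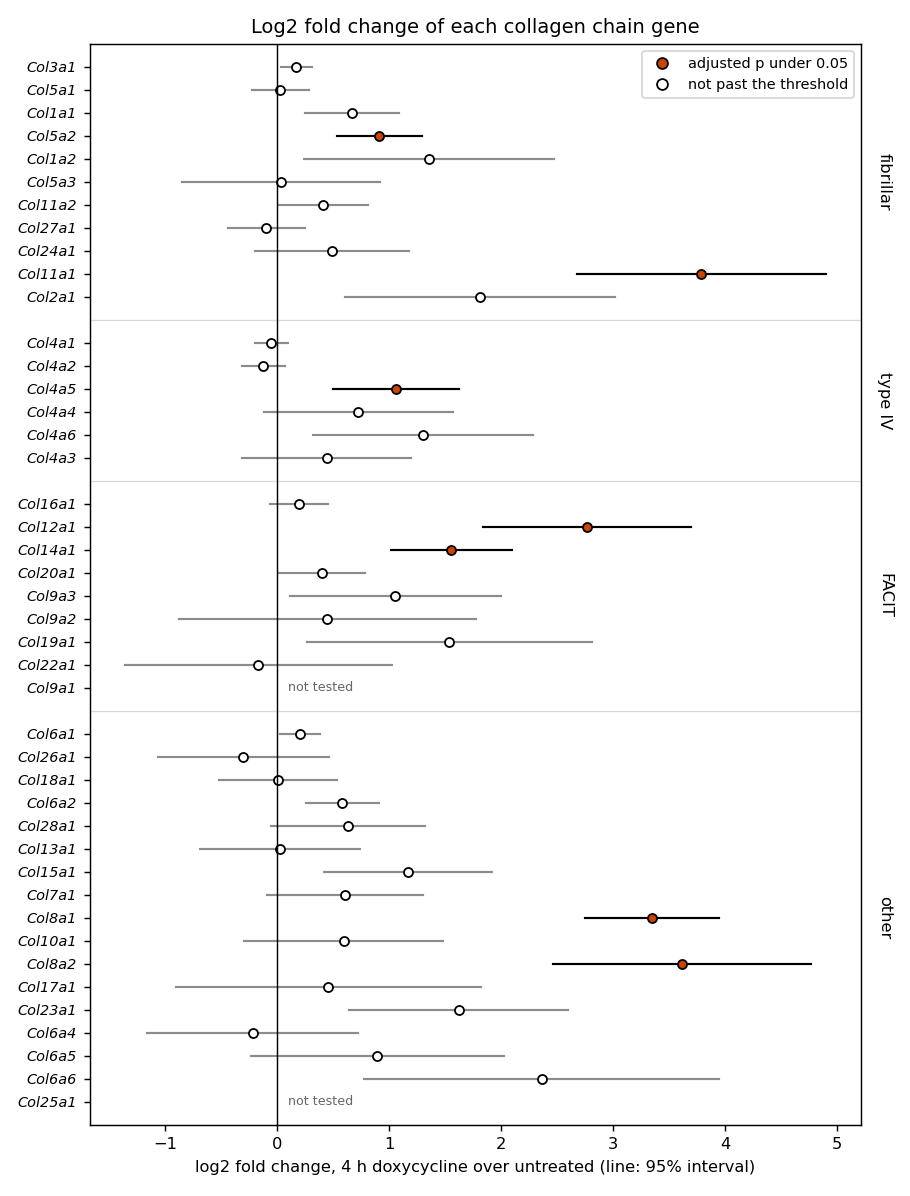
Log2 fold change (4 h doxycycline over untreated) of each collagen chain gene with its 95% interval, grouped by kind; filled circles passed an adjusted p of 0.05 in edgeR. The 7 filled circles are all to the right of 0, and the intervals of Col3a1, Col4a1 and Col4a2 are narrow and near 0.

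By level, 6 of the 7 genes that rose lay outside the 10 most abundant members, as did 31 of the 41 members tested. Among the 10 members with the highest level per exonic length over all libraries (Col3a1, Col4a1, Col4a2, Col6a1, Col5a1, Col1a1, Col16a1, Col26a1, Col5a2 and Col1a2), 1 was called, Col5a2. Among the 31 other members tested, 6 were called, and the difference between these shares was not tested. Col8a1, Col8a2 and Col12a1 had untreated means of 0.0151, 0.00623 and 0.0352 counts per base, well under the range where counts levelled off, and Col3a1 and Col4a1 had 1.35 and 1.04. Col6a1, Col5a1, Col16a1 and Col1a1, at 0.605, 0.512, 0.472 and 0.391, lay in between, where the levelling was weaker. The part of this levelling in the small differences of the abundant members was not tested. The called members also had lower GC content, with a median of 48.3% against 57.0% for the other tested members and 50.3% for all genes tested. With offsets for GC content and length, 9 members were higher, against 2.04% of all genes. Col4a5 and Col5a2 were no longer called, at log2 fold changes of 0.96 and 0.75 (adjusted p = 0.0570 and 0.0501), while Col1a1, Col6a2, Col11a2 and Col23a1 were.

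**Figure D4:**
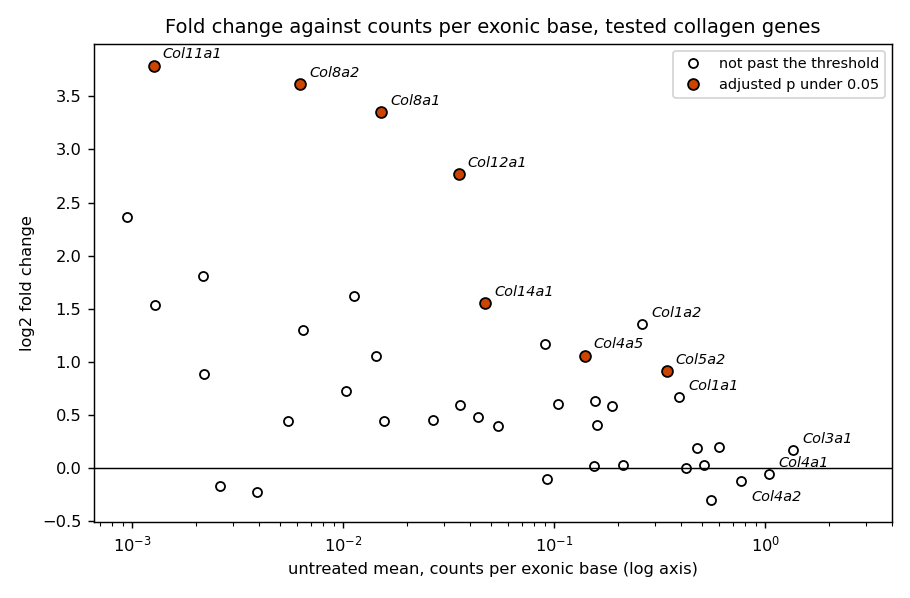
Log2 fold change of the 41 tested collagen genes against their untreated mean in counts per exonic base, on a log axis, with filled circles for those past an adjusted p of 0.05. Col11a1, Col8a2, Col8a1 and Col12a1 stand at the upper left, while Col3a1, Col4a1 and Col4a2, at the highest counts per base, lie near 0.

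Among the enzymes and chaperones that fold and modify the chains, 1 gene rose and 3 fell. All 22 on the list were tested (median log2 fold change -0.03, against 0.01 for all genes, of which 2.84% were higher and 2.18% lower). P4ha3, one of the alpha subunits of prolyl 4-hydroxylase, which makes the hydroxyproline that stabilises the helix, rose from 2.77 ± 0.975 to 17.3 ± 9.59 CPM (SD, n = 3 each; log2 fold change 2.65, SE 0.452, 95% interval 1.62 to 3.68, edgeR adjusted p = 0.0217). It was at 3.85, 2.51 and 1.96 CPM untreated and 14.8, 9.27 and 27.9 CPM after doxycycline. A second subunit, P4ha2, moved the other way, from 75.7, 76.0 and 88.1 to 47.7, 29.0 and 42.2 CPM (log2 fold change -1.01, SE 0.177, 95% interval -1.42 to -0.61, edgeR adjusted p = 0.0230). The groups did not overlap for either gene. P4ha1, the alpha subunit gene with the most CPM, was lower in each doxycycline library and did not pass (log2 fold change -0.25, edgeR adjusted p = 0.107). The lysyl hydroxylase genes Plod1 (221, 211 and 223 CPM untreated, 181, 162 and 172 after doxycycline; log2 fold change -0.35, edgeR adjusted p = 0.0327) and Plod3 (149, 149 and 155 CPM untreated and 114, 116 and 106 CPM after doxycycline; log2 fold change -0.43, edgeR adjusted p = 0.0212) fell by small amounts, and both lost the call with offsets for GC content and length (adjusted p = 0.0729 and 0.112). Serpinh1, which encodes the collagen chaperone HSP47, was at 219 ± 12.2 CPM untreated and 209 ± 13.5 CPM after doxycycline (log2 fold change -0.07, edgeR adjusted p = 0.621). At 1.05 to 1.35 counts per base it lies in the range where counts levelled off, and Plod1, at 0.599 to 0.933, lies near it. None of the 4 called genes passed without untreated replicate 1, 2 or 3 (adjusted p from 0.0775 to 0.188), and of them only P4ha3 passed without doxycycline replicate 3 (adjusted p = 0.0495).

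Of 13 procollagen processing and cross-linking genes, 2 were higher and none lower (median 0.37; 6 higher and 2 lower at an unadjusted p under 0.05 in edgeR, 4 and 1 in DESeq2, 2 and 0 in limma-voom). Of all genes, 2.84% were higher and 2.18% lower in edgeR, 13.1% and 10.8% at an unadjusted p under 0.05, and 1.69% higher in limma-voom. DESeq2 called 4.29% of its 20453 genes higher. The 2 higher genes in edgeR encode lysyl oxidases, which oxidise lysines so that fibres can be cross-linked. Lox itself rose from 6.27 ± 2.27 to 60.5 ± 27.7 CPM (SD, n = 3 each; log2 fold change 3.28, SE 0.401, 95% interval 2.36 to 4.19, edgeR adjusted p = 0.00834), with 8.31, 3.83 and 6.68 CPM untreated and 60.1, 32.9 and 88.4 CPM after doxycycline. As for Col12a1, doxycycline replicate 2 was the lowest of its group and replicate 3 the highest, and the groups were far apart. Loxl3 was at 35.2, 35.2 and 38.5 CPM untreated and 51.1, 60.1 and 68.1 CPM after doxycycline (log2 fold change 0.72, SE 0.131, 95% interval 0.42 to 1.02, edgeR adjusted p = 0.0241). Loxl1 was also higher in each doxycycline library (29.0, 10.1 and 28.4 against 8.31, 8.17 and 8.43 CPM) but did not pass (log2 fold change 1.44, edgeR adjusted p = 0.0635). Tll1, a tolloid protease that can trim procollagen, was lower in each (12.1, 9.88 and 7.83 against 17.6, 20.4 and 15.8 CPM; log2 fold change -0.86, edgeR adjusted p = 0.0697) and did not pass. Bmp1, the main procollagen C-proteinase, was at 249.7 ± 7.97 CPM untreated and 249.5 ± 10.8 CPM after doxycycline. Its 0.818 to 1.12 counts per base lie in or near the range where counts levelled off. Lox and Loxl3 lost the call without each of untreated replicates 1, 2 and 3, and Loxl3 also without doxycycline replicate 3.

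Of 9 collagen receptor genes tested, 1 was higher and none lower (median 0.43; 3 higher and 0 lower at an unadjusted p under 0.05 in edgeR, 2 and 0 in DESeq2, 1 and 0 in limma-voom), against 2.84% of all genes higher in edgeR and 13.1% at an unadjusted p under 0.05. The share of all genes higher was 4.29% in DESeq2 and 1.69% in limma-voom. Itga10, the integrin alpha 10 chain, was at 20.6, 23.9 and 19.1 CPM untreated and 52.0, 47.8 and 78.3 CPM after doxycycline (log2 fold change 1.48, SE 0.202, 95% interval 1.02 to 1.94, edgeR adjusted p = 0.0126), and it lost the call without each of untreated replicates 1, 2 and 3. Itga1, the alpha chain of another collagen-binding integrin, was higher in each doxycycline library, at 22.4 ± 6.32 CPM untreated and 45.4 ± 13.7 CPM after doxycycline (SD, n = 3 each), without passing (log2 fold change 1.02, edgeR adjusted p = 0.0658). Lair1 (log2 fold change 0.95, edgeR adjusted p = 0.144) and Itga2 (log2 fold change 0.42, edgeR adjusted p = 0.317) followed by p. The receptor tyrosine kinase gene Ddr2, at 439 ± 15.4 CPM untreated and 447 ± 9.07 CPM after doxycycline, and the shared beta chain gene Itgb1, at 325 ± 13.0 CPM untreated and 336 ± 21.1 CPM after doxycycline, did not pass. At 0.607 to 0.837 counts per base for Ddr2 and 1.12 to 1.32 for Itgb1, both lie in or near the range where counts levelled off. None of 10 collagen breakdown genes tested passed in edgeR, DESeq2 or limma-voom, and 0 were higher and 1 lower at an unadjusted p under 0.05 in edgeR (median -0.05), where 13.1% and 10.8% of all genes were. The smallest p was that of the collagenase Mmp13 (log2 fold change -0.60, edgeR adjusted p = 0.193), followed by Fap (0.54), Ctsk (0.31) and Mmp2 (0.10). Mmp2, at 1.04 to 1.30 counts per base, also lies in the range where counts levelled off.

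**Figure D5:**
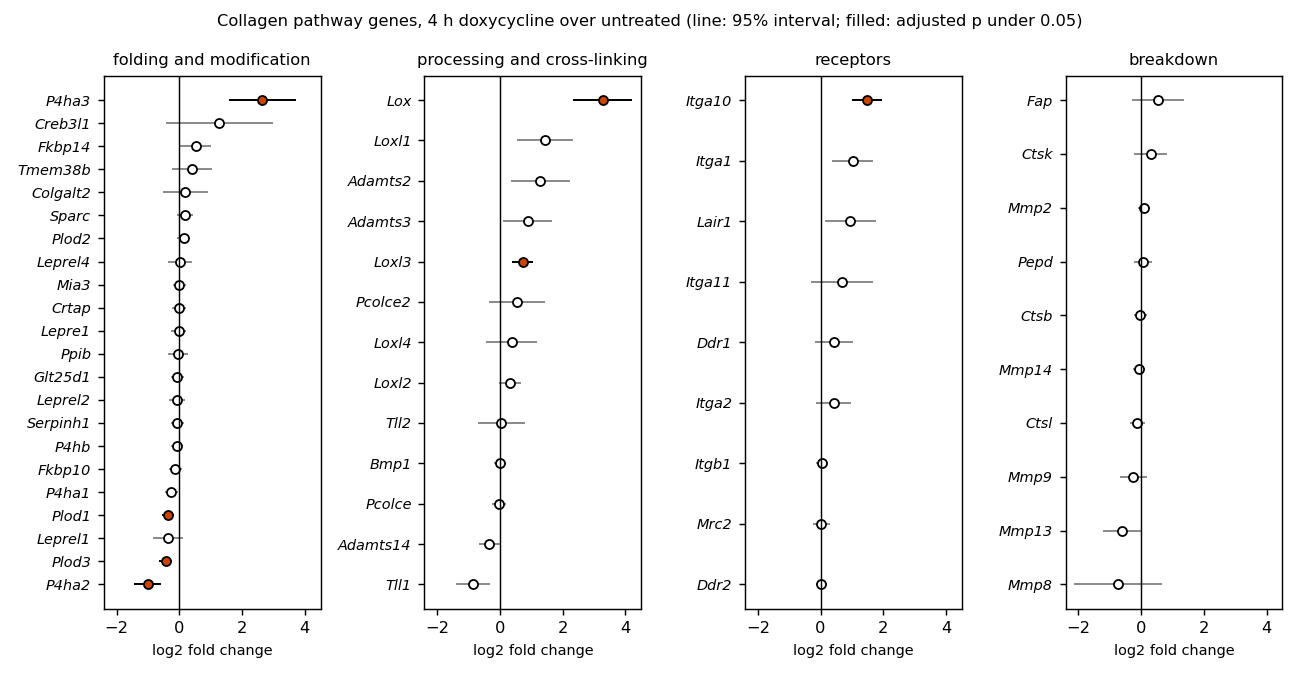
Log2 fold change (4 h doxycycline over untreated) with 95% intervals for the tested genes that fold, process, cross-link, bind or break down collagen, in 4 panels; filled circles passed an adjusted p of 0.05 in edgeR. P4ha3, Lox, Loxl3 and Itga10 are filled on the right of 0, and P4ha2, Plod1 and Plod3 on the left.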

How the data were processed

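Libraries were made with an Illumina TruSeq RNA kit (v2) from ribosome-depleted RNA of frozen tumours, per the labels' protocols. Values are raw read counts per gene as the authors deposited them. The submitters' processing notes name mouse build mm9 and the tools HTSeq, TopHat and TopHat2 2.0.8, without roles. Use of strand, multiply mapped reads and duplicates is not stated, so overlapping antisense genes and close paralogs are uncertain. Of 21761 rows, 90 without a gene name (0.0361% to 0.0402% of counts) were left out.

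Counts were tested in R 4.3.3 with edgeR 4.0.16 (filterByExpr, minimum count 10, TMM, robust quasi-likelihood test, no covariates, two-sided) on all 6 libraries, with Benjamini-Hochberg adjustment over 14809 genes and a threshold of 0.05. SE is the size of the log2 fold change over the root of edgeR's F. Scripts were tested on simulated data. Exonic length and GC content came from GENCODE M21, build GRCm38, and all but 208 of 21671 gene symbols matched. Alternatives were DESeq2 1.42.0, limma-voom (limma 3.58.1), other scalings and filters, GC and length offsets, a replicate block and leaving out each library. Libraries of a group differed beyond sampling noise, with chi-square values of 5.17 to 29.8 times the degrees of freedom.

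Every member may be named, with values by library for called members, the 10 of highest level per length, head-to-head pairs and some others, the last chosen after their values were seen. Each pathway list names its called genes and, up to 4, those of smallest p, and a few more chosen after their values were seen. Members, lists and rules were chosen with earlier results of these data known.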

Additional observations from a re-analysis of the deposited data

How the results depend on the processing

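Scarce members such as Col9a1 and Col25a1 had too few counts to be tested, and abundant ones such as Col3a1 lie in the range where counts levelled off. The part of this levelling in their differences was not tested. The following counts moved by over 1.5 times. DESeq2 gave 877 genes higher, 790 genes lower, 13 collagen genes higher, 2 type IV genes higher, 6 other collagen genes higher, 4 processing and cross-linking genes higher, 1 processing and cross-linking gene lower and 2 receptor genes higher. limma-voom gave 251 genes higher, 0 type IV genes higher and 1 FACIT gene higher. TMM without genes above 0.5 counts per base gave 0 type IV genes higher. No filter on low counts gave 0 type IV genes higher, 1 FACIT gene higher and 4 other collagen genes higher. GC and length offsets gave 0 type IV genes higher and 4 other collagen genes higher. The replicate block gave 215 genes higher, 179 genes lower, 0 type IV genes higher, 1 folding gene lower and 2 receptor genes higher. The replicate block with GC and length offsets gave 11 collagen genes higher, 4 fibrillar genes higher, 0 type IV genes higher, 5 other collagen genes higher, 1 folding gene lower, 4 processing and cross-linking genes higher, 1 processing and cross-linking gene lower and 2 receptor genes higher. The reported counts were 421 higher and 323 lower genes in all, 7 collagen genes higher (2 fibrillar, 1 type IV, 2 FACIT and 2 other), 1 folding gene higher and 3 lower, 2 processing and cross-linking genes higher and 1 receptor gene higher. Leaving out each library gave 11 to 1244 genes higher, 12 to 866 genes lower, 1 to 12 collagen genes higher, 0 to 1 collagen gene lower, 0 to 3 fibrillar genes higher, 0 to 0 type IV genes higher, 0 to 2 FACIT genes higher, 1 to 7 other collagen genes higher, 0 to 1 other collagen gene lower, 0 to 2 folding genes higher, 0 to 3 folding genes lower, 0 to 5 processing and cross-linking genes higher, 0 to 1 processing and cross-linking gene lower, 0 to 2 receptor genes higher. For St18 the log2 fold change ran from 0.58 to 1.45, and it passed without doxycycline replicate 2. The sign turned, with no call on the new side, for these members and log2 fold changes. With GC and length offsets Col4a1 (0.00960), Col4a2 (0.0224) turned. With a replicate block with GC and length offsets Col4a2 (0.0218), Col5a3 (-0.00749) turned. With TMM without genes above 0.5 counts per base Col5a1 (-0.0257), Col5a3 (-0.0364), Col13a1 (-0.0115), Col18a1 (-0.0571) turned. With limma-voom Col5a3 (-0.17), Col13a1 (-0.12), Col18a1 (-0.0127) turned. With a replicate block Col5a3 (-0.16), Col13a1 (-0.0601), Col18a1 (-0.0209) turned. With DESeq2 Col18a1 (-0.00956) turned. With DESeq2 size factors Col18a1 (-1.78e-04) turned. With no filter Col18a1 (-0.00509) turned. With a minimum of 10 counts per library Col18a1 (-0.00846) turned. With single libraries left out the sign turned for Col5a1 (-0.0491 to 0.11), Col5a3 (-0.47 to 0.41), Col6a4 (-0.51 to 0.0397), Col9a2 (-0.44 to 0.87), Col13a1 (-0.30 to 0.33), Col17a1 (-0.0478 to 1.45), Col18a1 (-0.19 to 0.23), Col22a1 (-0.97 to 0.15), Col26a1 (-0.85 to 0.00739), Col27a1 (-0.21 to 0.0460). The causes were not tested. Libraries with the same number did not deviate together (correlations -0.00976, -0.0747 and 0.0155), so the numbers were not taken to pair them. Of the 7 collagen calls, the replicate block lost Col4a5 (adjusted p = 0.120), and it added Col1a2 (log2 fold change 1.44, adjusted p = 0.0479).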
